A study of Homo sapiens with 9 samples.

Results

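Binding sites of p65 were compared between vehicle-treated and XMU-MP-1-treated 786-O cells, and each site was classed as lost, kept or new by its position in the genome. The members were all p65 peaks of these 2 lists, 17957 in the vehicle library and 1649 in the XMU-MP-1 library, or 19606 of the 60343 peaks that the 5 peak lists of the series hold outside the mitochondrial genome. A vehicle peak was called kept where at least 1 bp of it lay in an XMU-MP-1 peak, and lost otherwise. An XMU-MP-1 peak was called new where no vehicle peak overlapped it. The mitochondrial peak of the vehicle list was left out.

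786-O is an established human clear cell renal carcinoma line. XMU-MP-1 is an inhibitor of MST1 and MST2, the kinases at the head of the Hippo pathway. Chromatin immunoprecipitation followed by sequencing (ChIP-seq) was done on 1 library per condition, with a control that carries no treatment label and a library labelled siTEAD4 as further p65 profiles and a TEAD profile from XMU-MP-1-treated cells. The dose and duration of the treatment, and any stimulus given to activate NF-κB, are not stated in the labels. Each side of the comparison rests on 1 library of 1 cell line, so differences cannot be set against a spread between replicates, and p-values are not reported. Intervals are 95% and cover the counting of peaks or fragments only.

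p65, encoded by RELA, is a DNA-binding subunit of NF-κB. In resting cells NF-κB dimers are held in the cytoplasm by IκB proteins. When IκB is degraded the dimers enter the nucleus and bind κB sites in promoters and enhancers, many of them near genes of inflammation and cell survival. MST1 and MST2 act through LATS1 and LATS2 to keep the coactivators YAP and TAZ out of the nucleus, where these bind DNA through TEAD proteins.

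Most vehicle sites had no counterpart under XMU-MP-1. Of the 17957 vehicle peaks 1575 were kept, which is 8.77% (8.37 to 9.19), and 16382 were lost, which is 91.2%. Of the 1649 XMU-MP-1 peaks 71 were new, which is 4.31% (3.43 to 5.40). Matching was nearly always of 1 peak to 1 peak: 1572 XMU-MP-1 peaks overlapped a single vehicle peak, and 6 overlapped more than 1.

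The number of sequenced fragments stacked at a vehicle summit differed between most kept and lost sites. Kept sites had a median of 46 fragments (interquartile range 30 to 65) and lost sites 17 (14 to 23). Under 15 fragments 0.616% of vehicle peaks were kept, between 20 and 29 fragments 5.90%, between 30 and 49 fragments 20.6% and between 50 and 79 fragments 56.8%. With 80 or more fragments 87.7% were kept. The vehicle peak with the most fragments, 277 at chr22:18717983-18718226, was lost. Its local background was 97.8 fragments and its fold 2.81. The weakest peak called in the vehicle library had 7 fragments and the weakest called in the XMU-MP-1 library had 14, over a median local background of 2.13 and 4.10 fragments at the peaks. For vehicle sites of few fragments, less binding and a peak under the calling limit of the XMU-MP-1 library cannot be told apart.

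Within the same class of fragments, sites that overlapped a TEAD peak were kept more often. Fragments were not held equal inside a class. Between 30 and 49 fragments 31.9% were kept with a TEAD peak and 9.70% without. Between 50 and 79 fragments the shares were 69.7% and 35.8%, and at 80 or more 92.9% and 76.4%. The intervals of the 2 shares did not overlap in any of these 3 classes.

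**Figure D1:**
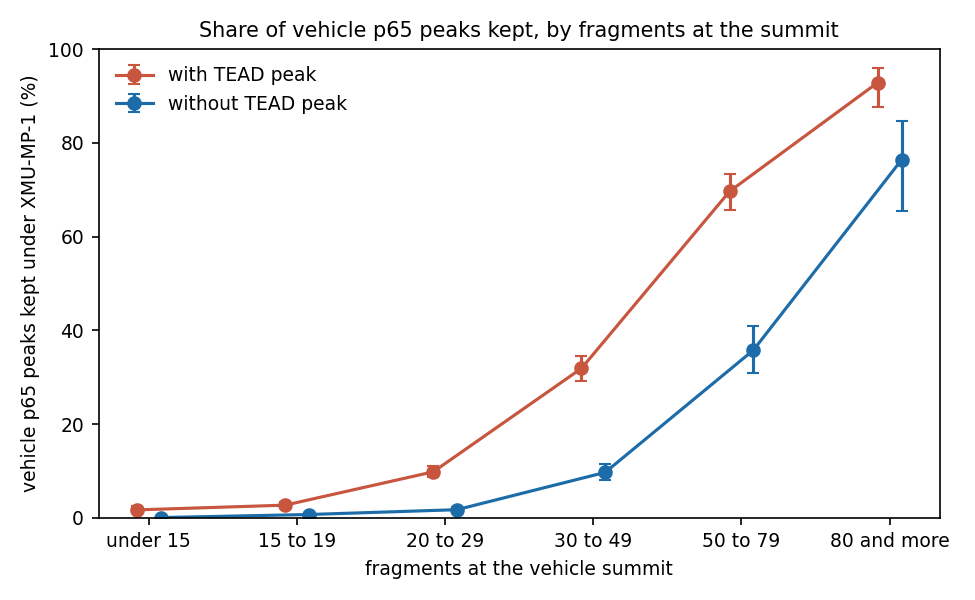
Share of vehicle p65 peaks kept under XMU-MP-1 (y axis, percent) by the number of fragments at the vehicle summit (x axis), for peaks with and without an overlapping TEAD peak. Bars are 95% Wilson intervals over peaks; both curves rise with the number of fragments, and at 50 to 79 fragments the values are 69.7% and 35.8%.

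Kept sites were mostly smaller in the XMU-MP-1 library. The vehicle and XMU-MP-1 summits of a kept site lay 34 bp apart at the median (15 to 65), and 65.7% of them lay within 50 bp, a closeness that the definition of kept by overlap largely fixes. The vehicle peak was the longer one at 88.5% of kept sites, and its fold over local background was the higher one at 91.3%. The number of fragments at the XMU-MP-1 summit was 0.783 times that at the vehicle summit at the median (interquartile range 0.601 to 1.05), without any correction for the higher background of the XMU-MP-1 library. Folds of the 2 libraries had a Spearman correlation of 0.449 across the 1575 sites, which share their libraries and are not replicates.

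**Figure D2:**
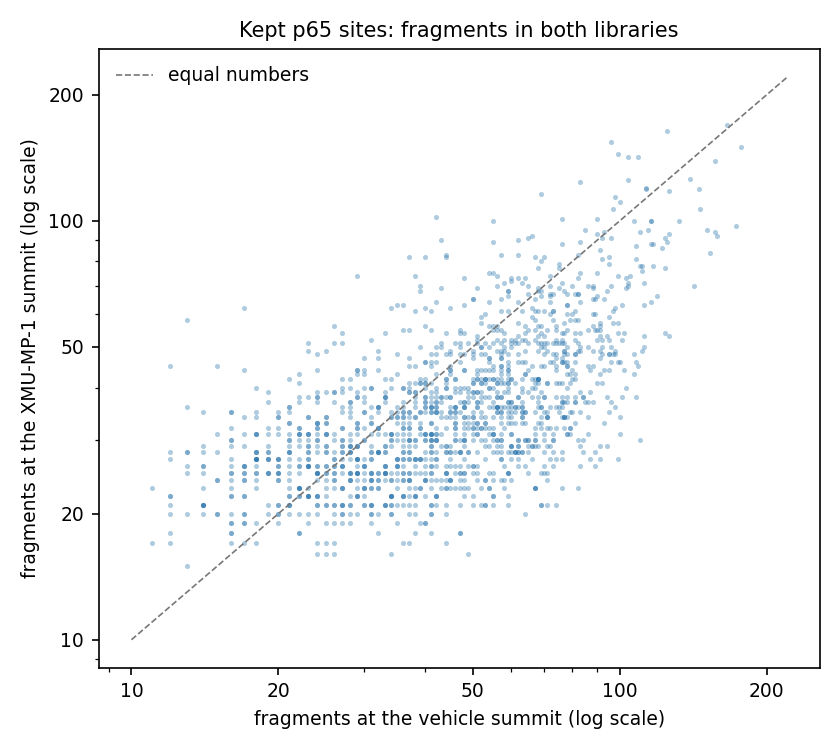
Fragments at the vehicle summit (x axis, log scale) and at the XMU-MP-1 summit (y axis, log scale) of kept p65 sites, 1 point per site, not corrected for depth. Of the 1571 sites drawn, 69.3% lie below the dashed line of equal numbers.

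The decline was uneven between sites. The site with the highest XMU-MP-1 fold of the list, chr14:35872782-35873595, had a fold of 44.3 under vehicle and 38.2 under XMU-MP-1. Its XMU-MP-1 summit is 1 of 4 for which no number of fragments could be solved. At chr19:42625766-42626316 the vehicle peak had 83 fragments and a fold of 37.3, and the XMU-MP-1 peak had 124 fragments and a fold of 31.2. At chr10:99642112-99642788 the fragments were 166 (142 to 193) and 169 (144 to 196), and the folds 51.6 and 30.1. The fold was lower under XMU-MP-1 at all 3 sites, also where the fragments, uncorrected for depth, were as many or more.

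Other strong sites were kept with far fewer fragments. At chr13:110317970-110318695 the number was 124 in the vehicle library and 54 in the XMU-MP-1 library, and the fold was 55.6 and 10.8. At chr21:45592386-45593006 the numbers were 126 and 53. At chr18:36520559-36521441 they were 117 and 78. The sites on chromosomes 13 and 18 overlapped no TEAD peak, and the site on chromosome 21 overlapped a TEAD peak of fold 5.43. Over the 10 strongest kept sites the vehicle library had 117 to 166 fragments and the XMU-MP-1 library 53 to 169, leaving out 1 vehicle and 2 XMU-MP-1 summits that could not be solved. The site on chromosome 18 is isolated, with its nearest vehicle neighbour about 1087110 bp away.

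Strong sites were also lost, though none had the fold of the 10 strongest kept ones. The strongest lost site, chr17:73873011-73873647, had a fold of 41.9 and 94 vehicle fragments, and its nearest XMU-MP-1 summit was 621067 bp away. At chr11:109957542-109958124 the vehicle library had 103 fragments and a fold of 38.6, and the nearest XMU-MP-1 summit was 837336 bp away. At chr1:200122310-200122912 it had 111 fragments, and at chr10:79956696-79957230 it had 109. The strongest lost site overlapped a TEAD peak of fold 3.37, and the last 3 overlapped none. Each of these sites also had a control p65 peak. The 10 strongest lost sites had 72 to 111 vehicle fragments.

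A strong lost site could lie in the neighbourhood of an XMU-MP-1 peak. At chr6:44233134-44233634 the vehicle peak had 79 fragments and a fold of 27.6 and was lost, while an XMU-MP-1 summit was present 2088 bp away. At chr7:44790389-44791105 a peak of 105 fragments was lost with an XMU-MP-1 summit 15570 bp away, which is beyond the 12500 bp used below for neighbours. The lost peak on chromosome 6 overlapped a TEAD peak of fold 4.83, and that on chromosome 7 overlapped none.

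In the strongest decile of vehicle fold, 838 sites were kept and 959 were lost, and all of both groups had a control p65 peak. Kept sites of this decile had a median of 63 fragments and lost ones 45. A TEAD peak overlapped 72.9% (69.8 to 75.8) of the kept and 35.8% (32.8 to 38.9) of the lost sites. A p65 peak of the library labelled siTEAD4 overlapped 90.3% of the kept and 24.3% of the lost sites. Another vehicle summit lay within 12500 bp of 60.9% of the kept and 48.9% of the lost sites. The decile was defined by the vehicle fold, within which the kept sites were the stronger ones, with medians of 18.3 and 14.8.

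A small group of kept sites went the other way. At 137 of the 1575 kept sites (8.70%, 7.41 to 10.2) the fold was higher in the XMU-MP-1 library. The vehicle peak at chr2:66662191-66662418 had 12 fragments (6.20 to 21.0) and a fold of 4.16, and the XMU-MP-1 peak had 45 fragments (32.8 to 60.2) and a fold of 9.58. At chr22:30602782-30603253 the vehicle peak had 17 fragments and the XMU-MP-1 peak 62, at a site with a TEAD fold of 70.0. At chr15:65597048-65597275 the numbers were 15 and 45, with a TEAD fold of 24.3. These sites were picked for the ratio of the 2 folds, so their direction is a description only.

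Vehicle sites were dense and the sites left under XMU-MP-1 were sparse. The median distance from a vehicle summit to the next was 15024 bp, and from an XMU-MP-1 summit to the next 159800 bp. Spacing depends on the number of peaks, so the XMU-MP-1 list was set beside an equal number of the strongest vehicle peaks, whose median distance was 255928 bp. Another summit lay within 12500 bp of 23.6% (21.6 to 25.7) of the XMU-MP-1 peaks and of 12.1% (10.6 to 13.7) of those vehicle peaks. The difference was 11.5 points (8.94 to 14.1). The XMU-MP-1 sites thus lay closer together than equally many strong vehicle sites.

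The loss left wide gaps. From a lost site the nearest XMU-MP-1 summit was 372922 bp away at the median. Of the lost sites 7.85% had an XMU-MP-1 summit within 12500 bp and 25.7% within 100 kb. Of 2366 windows of 1 Mb that held a vehicle peak, 882 held a kept one. Among the 713 windows with 10 or more vehicle peaks, 212 held no kept peak. With 8.77% of all vehicle peaks kept, some such windows would hold none under an even loss too. The number expected was not calculated, so the count is a description only.

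Dense windows kept a larger share. In windows with 1 to 4 vehicle peaks 5.46% (4.58 to 6.51) of the peaks were kept, in windows with 10 to 19 peaks 8.59%, and in windows with 30 or more 14.7% (11.8 to 18.1). The share expected from the fold deciles of the same peaks, that is, if each peak were kept as often as all vehicle peaks of its decile, was 8.22%, 8.72% and 9.59%. The share of peaks with a TEAD peak rose over the same classes, from 36.2% to 47.4% and 55.5%. Its part in the result was not tested at this scale.

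The window from 36 to 37 Mb of chromosome 22 held the most vehicle peaks, 37, of which 6 were kept. The window from 3 to 4 Mb of chromosome 10 held 36, of which 8 were kept. By contrast the window from 10 to 11 Mb of chromosome 20 held 26 vehicle peaks, the strongest with a fold of 15.1, and kept none. The window from 4 to 5 Mb of chromosome 6 held 25 and kept none, and its strongest peak had a fold of 17.8. All windows with 20 to 29 vehicle peaks together kept 12.7% of their peaks, where 10.05% was expected from the fold deciles. The named windows were picked for their counts, and no expected number was calculated for them.

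At the smaller scale of 12500 bp the same held. A vehicle peak with another vehicle summit within 12500 bp was called clustered. Of 8395 clustered peaks 11.8% (11.1 to 12.49) were kept, and of 9562 solitary peaks 6.13% (5.67 to 6.63). With both groups weighted to the same deciles of vehicle fold, the shares were 10.8% and 6.75%, apart by 4.09 percentage points (3.36 to 4.82). Fold was not held equal inside a decile. The highest decile ran from a fold of 12.4 to 63.9 and held 838 of the 1575 kept peaks. Clustered peaks overlapped a TEAD peak more often, 52.7% against 39.4%. Within peaks that had a TEAD peak the difference was 4.12 points (2.83 to 5.42), and within those that had none it was 1.37 points (0.671 to 2.08).

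Vehicle summits up to 12500 bp apart were joined into 12775 regions, of which 3213 held at least 2 peaks. All peaks were lost in 2458 of these, all were kept in 37, and 718 held both kept and lost peaks. At least 1 peak was kept in 6.13% of the regions with a single peak, in 16.4% of those with 2 and in 30.3% of those with 3. With 5 peaks the share was 40.7% (31.1 to 50.9), and with 8 or more 87.5% (71.9 to 95.03). A region with more peaks has more chances to keep one. The shares expected from the fold deciles of the peaks were 8.04%, 17.0%, 25.5%, 44.3% and 69.9%. Regions of 1, 2 and 5 peaks thus lay below their expected share. The share of single peaks kept rose from 9.0% in regions of 2 peaks, where 8.92% was expected from their folds, to 29.3% (24.5 to 34.6) in regions of 8 or more, where 14.8% was expected. This last class includes the region chr1:228744255-228782528, an array described below whose peaks may not be separate sites. It kept 16 of 18 peaks, where 7.64 were expected. The class was not recalculated without it.

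**Figure D3:**
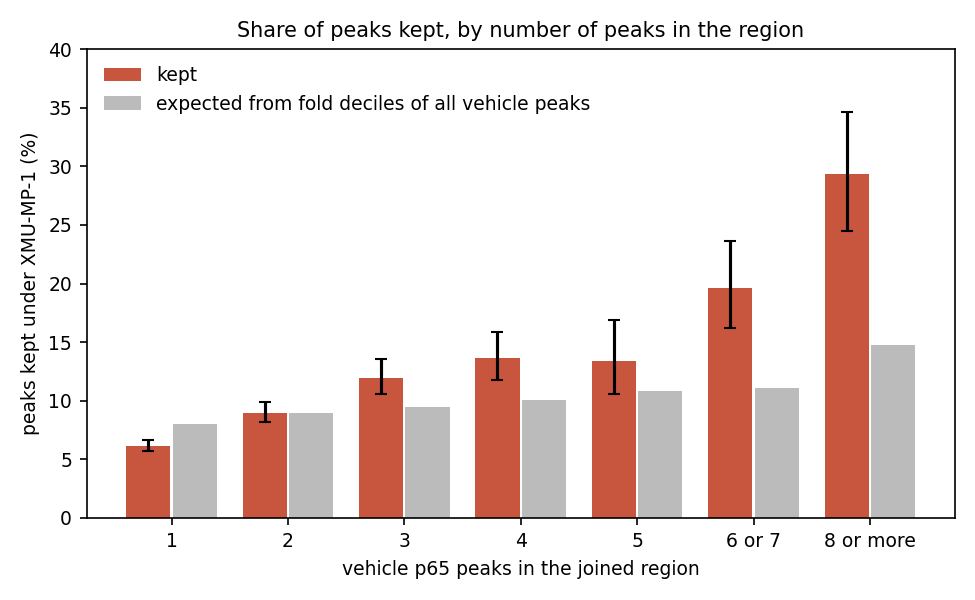
Share of vehicle p65 peaks kept (y axis, percent) by the number of vehicle peaks in their joined region (x axis), beside the share expected from the fold deciles of all vehicle peaks. Error bars are 95% Wilson intervals over peaks. The largest regions kept 29.3% against 14.8% expected, with the array on chromosome 1 included (16 of 18 kept, 7.64 expected).

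The survivor within a region was usually its strongest peak. In 596 regions with 1 kept peak and at least 1 lost one, the kept peak had the highest vehicle fold in 80.2% (76.8 to 83.2). The mean of 1 over the number of peaks in these regions was 39.7%.

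Kept sites also lay near each other. Clustered peaks with a kept neighbour within 12500 bp were kept in 22.4% (20.5 to 24.5) of 1614 cases, and those with only lost neighbours in 9.25% (8.58 to 9.96) of 6781. At equal deciles of fold the difference was 9.80 percentage points (8.11 to 11.5). It was 11.02 points (8.26 to 13.8) among peaks with a TEAD peak and 5.52 points (2.34 to 8.70) among peaks without.

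The excess beside a kept neighbour was smaller at larger distances. Peaks with another kept summit up to 2.5 kb away were kept in 26.8% (23.4 to 30.5), against 11.6% expected from their folds. From 5000 to 12500 bp away the share was 17.6% against 11.5%. From 12500 to 50000 bp it was 10.97% against 8.96%. At 200 kb to 1 Mb it was 7.01%, below the 8.67% expected. Peaks nearer a kept summit were somewhat stronger, as their expected shares show. The share with a TEAD peak fell from 61.6% in the nearest class to 41.2% beyond 1 Mb.

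The share kept fell most between TEAD distances under and over 1 kb. Vehicle peaks whose summit lay 0 to 50 bp from a TEAD summit were kept in 15.5% (14.4 to 16.8), and those 200 bp to 1 kb away in 12.8% (11.3 to 14.5). From 1 to 5 kb the share was 4.57% (3.68 to 5.67), and beyond 50 kb 3.18% (2.60 to 3.89). A TEAD peak overlapped 60.2% of the p65 peaks in the class from 200 bp to 1 kb and 0.762% in the next. At equal deciles of fold the shares were 13.8%, 13.2%, 5.21% and 3.47%. Among peaks that overlapped no TEAD peak, a TEAD summit 1000 to 12500 bp away went with a share 1.12 percentage points higher (0.360 to 1.89) than one farther off. The TEAD list comes from XMU-MP-1-treated cells, so TEAD in vehicle cells is not described by it.

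**Figure D4:**
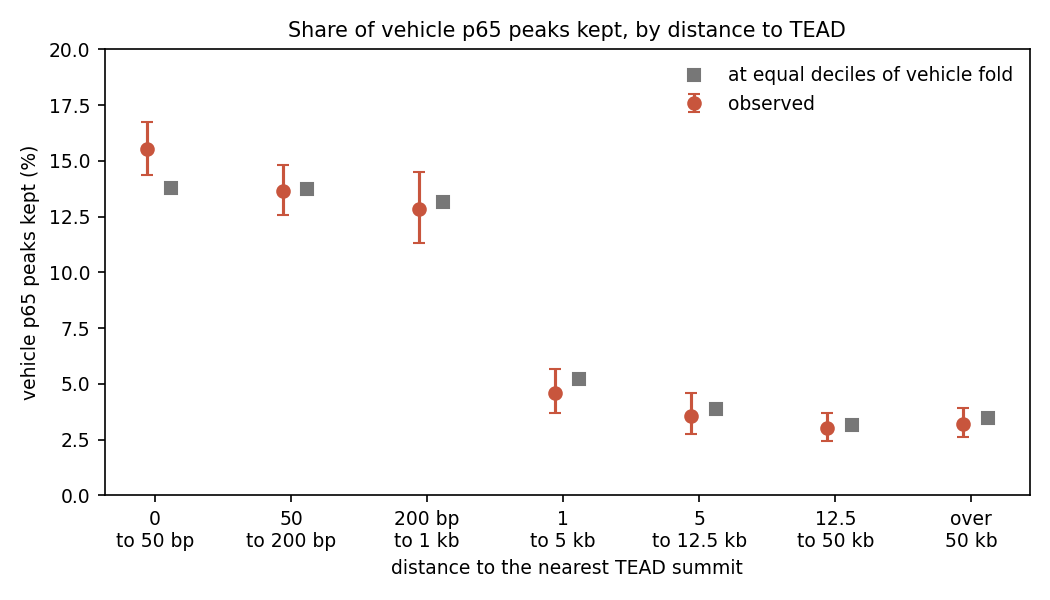
Share of vehicle p65 peaks kept (y axis, percent) by the distance from their summit to the nearest TEAD summit (x axis). Circles with 95% Wilson intervals are observed shares and squares are shares at equal deciles of vehicle fold; the share is 12.8% at 200 bp to 1 kb and 4.57% at 1 to 5 kb.

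Kept peaks were most numerous in 5 regions. They were picked for that number, so the shares describe them and test nothing. At chr1:228744255-228782528, 16 of 18 vehicle peaks were kept, at chr15:67373451-67443178 8 of 14, at chr5:150439450-150474757 8 of 13, at chr22:30591309-30632203 6 of 10 and at chr7:100743361-100782122 5 of 8. TEAD peaks overlapped 11, 9, 9 and 7 of the vehicle peaks in the last 4 regions, and none in the first. Over all regions of 8 or more peaks, 61.9% of the vehicle peaks overlapped a TEAD peak.

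The region on chromosome 1 was an array. All 17 steps between its neighbouring vehicle summits were between 2040 and 2273 bp, with a median of 2235 bp. Its vehicle folds ranged from 5.10 to 23.3 with a median of 16.2, and its 17 XMU-MP-1 folds from 4.17 to 10.8 with a median of 6.12. All 18 peaks were also control peaks, and 17 had a peak in the library labelled siTEAD4. In RefSeq for another build, GRCh38.p14, chromosome 1 holds 17 RNA5S genes, which encode the 5S RNA of the ribosome, at a median spacing of 2241 bp. Whether the peaks lie on these genes was not tested, since the builds differ. In an array of near-identical copies reads cannot be assigned to one copy with certainty, so the 18 peaks may not be separate sites.

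On chromosome 15 the kept and lost peaks of the region were interleaved over 69.7 kb. The strongest peak of the region had folds of 24.9 under vehicle and 11.5 under XMU-MP-1. A second kept peak had 10.7 under vehicle and the region's highest XMU-MP-1 fold, 12.4. A peak with a vehicle fold of 3.60 was kept, with 4.12 under XMU-MP-1, while one with a fold of 10.4 at the end of the region was lost. These 2 were exceptions: 6 of the 8 kept peaks had a higher vehicle fold than every lost one, and in 41 of the 48 pairs of a kept and a lost peak the kept one was higher.

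On chromosome 5 there was no exception. The 8 kept peaks had vehicle folds between 10.4 and 23.4, and the 5 lost ones between 3.58 and 6.83. A peak with a vehicle fold of 23.2 had 4.34 under XMU-MP-1, and one with 16.1 had 13.8.

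Among regions that kept none, the 5 with the most peaks, picked for that, were chr17:76325473-76356565 with 11 vehicle peaks, chr11:118780042-118809567 with 10, chr15:40331348-40367932 with 9, chr1:209824386-209848775 with 8 and chr1:16465986-16491362 with 7. In the first 2 every peak was weak, with highest folds of 7.995 and 7.36, and 0.252 and 0.286 kept peaks were expected from their folds. The third held peaks with folds of 14.8, 13.6 and 9.59, all lost, where 1.21 kept peaks were expected. The fourth reached a fold of 18.6 and the fifth 16.0. The fifth place was shared by 9 regions of 7 peaks, of which the one with the strongest peak is given. TEAD peaks overlapped between 4 and 6 vehicle peaks in the first 4 regions, and between 2 and 7 in the 9 that tied. Over all regions the share of vehicle peaks with a TEAD peak was 61.9% with 8 or more peaks and 59.1% with 6 or 7.

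**Figure D5:**
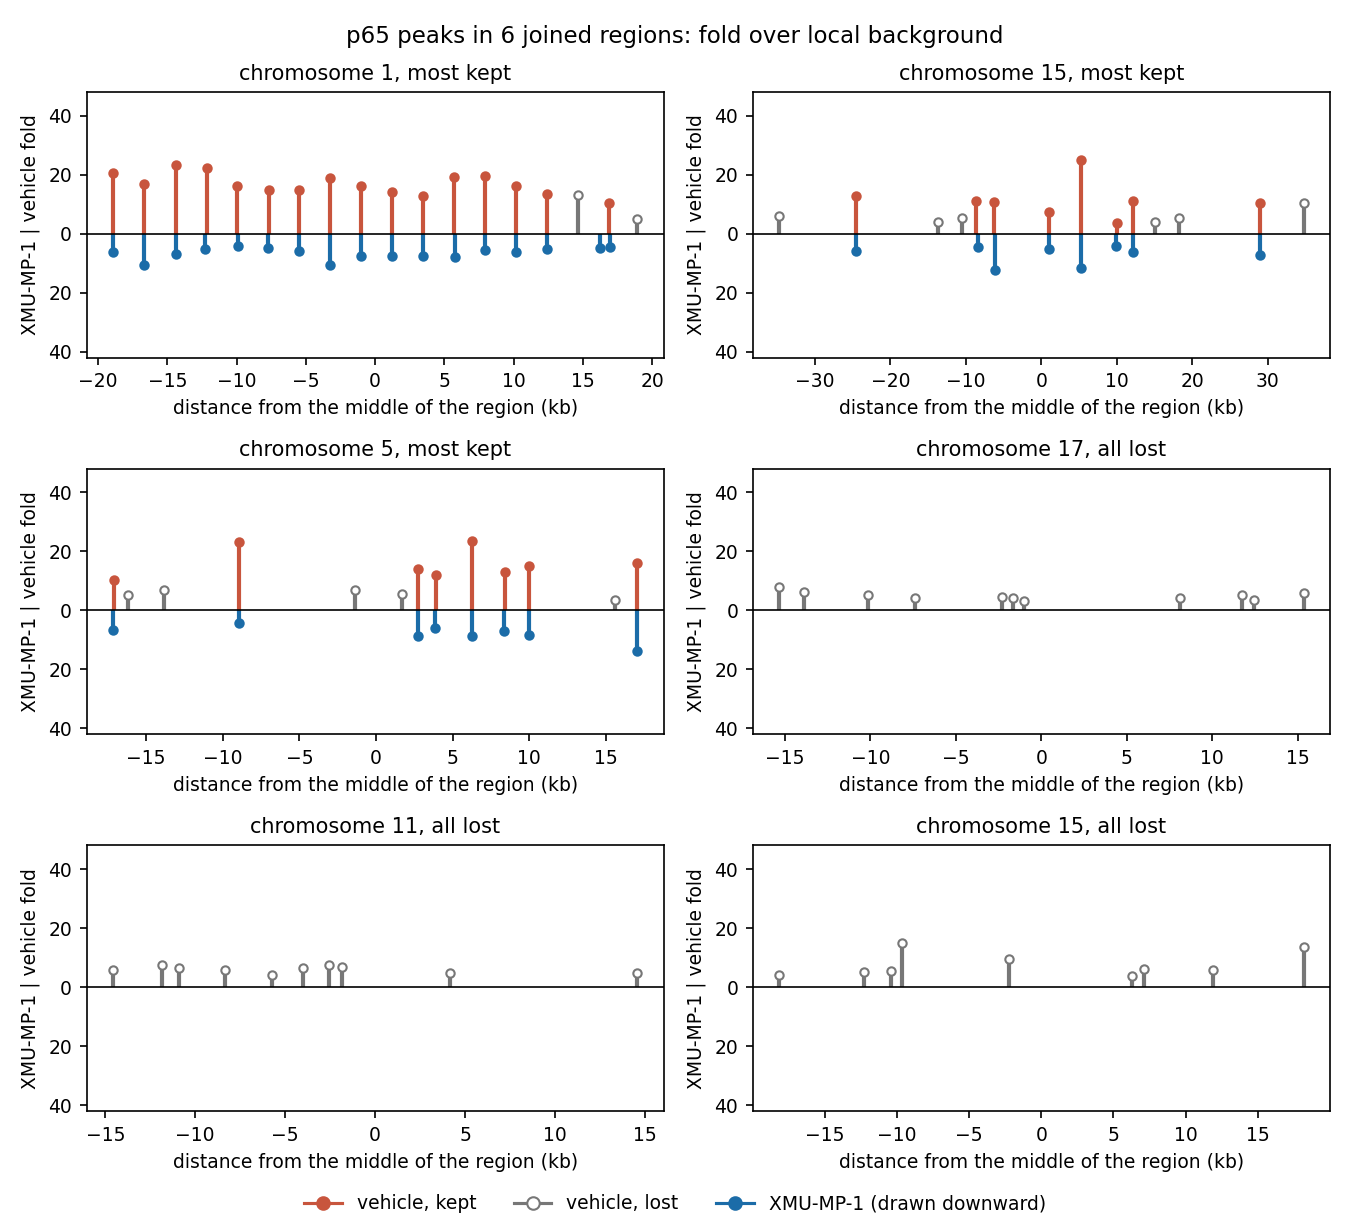
p65 peaks in 6 joined regions, the 3 with the most kept peaks and the 3 with the most peaks among those that kept none, by distance from the middle of the region (x axis, kb). Stems upward are vehicle folds over local background (filled kept, open lost), and stems downward are XMU-MP-1 folds, each over its own library's background; 16 of 18 stems of the array on chromosome 1 are filled, and the 3 regions that kept none have no downward stem.

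Kept sites overlapped the other p65 lists more often than lost sites did, with fold not held equal. A control peak overlapped 98.1% (97.3 to 98.7) of kept and 65.7% (64.9 to 66.4) of lost sites. A peak of the library labelled siTEAD4 overlapped 75.05% (72.9 to 77.1) of kept and 3.50% (3.23 to 3.79) of lost sites. The median vehicle fold was 12.9 at kept and 5.73 at lost sites. In the strongest decile of vehicle fold a control peak overlapped all kept and all lost sites, and a siTEAD4 peak 90.3% and 24.3%. All chromosomes took part: the share kept lay between 6.32% on chromosome 16 and 10.9% on chromosome 7, where 8.24% and 8.64% were expected from the folds of their peaks.

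New sites were few and mostly weak. The 71 new peaks had a median of 25 fragments (interquartile range 21 to 30), and XMU-MP-1 peaks at vehicle sites 34 (26 to 45). Their nearest vehicle summit was 13810 bp away at the median, and 34 of the 71 had one within 12500 bp. TEAD peaks overlapped 34 of the 71, which is 47.9% (36.7 to 59.3). Among vehicle peaks a TEAD peak overlapped 77.6% (75.5 to 79.6) of the kept and 42.5% (41.8 to 43.3) of the lost sites. A control p65 peak overlapped 25 of the 71, which is 35.2% (25.1 to 46.8), and a peak of the library labelled siTEAD4 overlapped 14. Only 40 of the 71 were in no other p65 list.

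Only 5 new sites had a fold of at least 10. The strongest, chr6:25129494-25130017, had 131 fragments (110 to 155) and a fold of 33.0, and its nearest vehicle summit was 192733 bp away. At chr4:183745810-183746213 there were 72 fragments (56.3 to 90.7), and at chr1:96407189-96407586 there were 64 (49.3 to 81.7). At chr22:50352363-50352733 there were 66 fragments (51.04 to 84.0), with a vehicle summit 1811 bp away. At chr15:88817853-88818264 there were 37, and this was the one of the 5 with a TEAD peak, of fold 4.81. None of the 5 had a peak in the control list or in the list labelled siTEAD4. For those on chromosomes 4, 1 and 15 the nearest vehicle summit was 15661, 420935 and 16270 bp away.

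Positions are those of the deposited lists, in build hg19, written from 1. Genes beside the sites, and the DNA sequence under them, are not analysed here, because no annotation or genome of this build was used.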

How the data were processed

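Per the submitters' processing notes, the authors used fastp, Bowtie2 2.4.5 and MACS2 with build hg19. Not given in the sources used here are the MACS2 version, its settings and the input behind each list. Each deposited list gives for every peak a fold (a ratio of the summit over local background), a −log10 p-value, a −log10 q-value and a score. These are the authors' values per peak. The score was not used.

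Peaks of the lists were compared by position with pandas 2.3.3, scipy 1.17.1 and numpy 2.4.6 (Python 3.11.15). Fragments at a summit were solved from the deposited fold and −log10 p, for 99.99% of vehicle and 99.8% of XMU-MP-1 peaks to within 0.005 of −log10 p. XMU-MP-1 pileups and backgrounds were divided by a step of 0.783, taken as 1 fragment. The 1 vehicle and 4 XMU-MP-1 peaks not solved, all strong, are left out of values in fragments. The lists give no read totals, so depth is known only through the background at peaks. Shares have 95% Wilson intervals, differences normal-approximation intervals, and fragments exact Poisson intervals. Peaks are treated as independent, though neighbours are not. Groups were weighted to 10 deciles of vehicle fold where stated. Neither this weighting nor the shares expected from fold deciles hold fold equal inside a decile. The code was tested on simulated data.

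Sites named are, by rule, among the 10 strongest lost and 10 strongest kept vehicle peaks, the new peaks with a fold of at least 10, and the 5 regions with most kept peaks or most peaks all lost. Sites named for their XMU-MP-1 fold, for a fold higher under XMU-MP-1 or for their 1 Mb window were chosen after their values were seen, as were the results on kept neighbours, TEAD distance, windows and the array. Members and lists were chosen with earlier results of these data known. Planned results on gene starts, gene lists and κB motifs need hg19 and are not analysed here.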

Additional observations from a re-analysis of the deposited data

How the results depend on the processing

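Of 32 alternatives tried on 6 results, 21 gave a value inside the 95% interval of the reported one and 11 moved it outside. None turned the direction of a difference. The shares of kept and of new peaks have no direction that could turn. The share of vehicle peaks kept was 9.90% with a −log10 q of at least 5 in both lists, 10.4% with at least 10, 12.6% among peaks with a control peak and 48.5% among the 1649 strongest vehicle peaks. The share of new peaks was 8.37% when summits within 200 bp counted as shared. The clustered minus solitary difference was 5.65 points without standardisation, 5.53 among peaks with a control peak and 1.37 among peaks without a TEAD peak. The excess of XMU-MP-1 peaks with a close neighbour was 8.25 points at 5 kb. The difference by kept neighbour was 11.5 points among peaks with a control peak and 5.52 among peaks without a TEAD peak. The 1649 strongest vehicle peaks were picked by fold. The share of clustered peaks kept was 1.84% in the lowest decile of fold and 52.1% in the highest. The cause of the moved values was not tested. Leaving out the array on chromosome 1, or splitting by TEAD, was chosen after seeing the data. Without the array the differences were 4.004 points for clustering and 9.56 points for kept neighbours. No paired analysis was possible because vehicle and XMU-MP-1 have 1 library each. Alternatives for gene starts, gene lists and motifs were not run. The calling limit bears on what a lost site means. The XMU-MP-1 list holds no peak under 14 fragments, and the median vehicle peak had 18. These numbers are not on the same scale: the median background at peaks was 4.10 fragments for XMU-MP-1 and 2.13 for vehicle. The part of depth was not tested.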
